A study of Mus musculus with 8 samples.

Results

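A set of 10 genes of mitophagy and autophagy was followed in erythroid precursors of the mouse fetal liver: the mitochondrial receptors Bnip3l, Bnip3 and Fundc1, the kinases Pink1 and Ulk1, and the autophagy genes Atg5, Atg7, Atg9a, Map1lc3b and Sqstm1. They were chosen by name, under a rule that uses no measured value, but with earlier results of these data known. All 10 were found among 52636 gene identifiers in the count table. RNAseq was performed on S0 cells, the fraction of dissociated E12.5 liver cells that FACS with antibodies to CD71, Ter119 and a set of lineage markers assigns to early erythroid precursors. There were 4 libraries from wild-type (WT) fetal livers and 4 from livers that lacked both Vps13a and Vps13c (DKO), all on a C57BL/6J background. DKO carried the Vps13a tm1d allele, made from tm1a by removal of the LacZ and Neo cassettes with Flp recombinase and of exon 6 with β-actin-Cre, a constitutive knockout in the whole body, together with a Vps13c-/- allele made earlier. The study's mutant embryos came from crosses of Vps13a+/-/Vps13c-/- mice, a cross that yields no WT embryo, so litter and genotype cannot be told apart here. The text of the study does not say that each library is 1 embryo, and if some are not, the p-values measure only the spread between these libraries.

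The deposited counts, which the authors had not normalized, summed to between 42114489 and 50886469 per WT library and between 36981439 and 42587815 per DKO library. Vps13a, the targeted gene, fell by 1.29 on the log2 scale (edgeR adjusted p = 0.00247), from between 1825 and 2108 normalized counts in WT to between 607 and 1039 in DKO, while Vps13c gave a log2 change of 0.49 (adjusted p = 0.182). The libraries differed in ways beyond genotype. Xist, the transcript of the inactive X chromosome, was at 30.1 normalized counts or less in the 4 WT libraries and at 62.3 in DKO replicate 3, against 18029 to 27043 in the other DKO libraries. The Y-linked Ddx3y was at 2911 to 3354 in WT, 2516 in DKO replicate 3 and 41.0 or less in the other DKO libraries, so that sex and genotype cannot be told apart except through DKO replicate 3. DKO replicate 1 stood furthest from the other DKO libraries. Erythroid markers were present in every library, but the sort also held transcripts of other cells. The summed level of 10 hepatoblast markers ranged from 522700 to 722410 among WT libraries and, for DKO, from 173290 in replicate 3 to 632060, and none of the 10 passed the test in edgeR, where 4 were lower at an unadjusted p under 0.05. The summed level of 8 mesenchyme markers ranged from 2017 to 5734 in WT and from 12864 to 44124 in DKO, highest in DKO replicate 1, with 7 of 8 higher. Neutrophil and granule markers summed to between 103740 and 134670 in WT and between 5361 and 45807 in DKO, with 4 of 7 tested lower and Ly6g at 0 in every library. Of 5 neural markers tested, 2 were higher, and of 10 macrophage, 8 endothelial and 8 megakaryocyte markers, 1 each was lower. Macrophage markers summed to between 4904 and 7382 in WT and between 1389 and 4388 in DKO. Endothelial markers summed to between 2795.5 and 3662 in WT and between 1690 and 1999 in DKO. Megakaryocyte markers summed to between 58594 and 67559 in WT. In DKO replicates 1 to 4 they summed to 49331, 42890, 98053 and 124080. Of 8 replication-dependent histone genes, whose transcripts normally lack a polyA tail, 7 were higher. The part of these differences in the results was not tested, and results of the 10 genes whose call or direction rests on DKO replicate 1 or 3 are given without it.

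Maturing red cells lose their mitochondria, and much of that clearance runs through mitophagy, in which an autophagosome encloses the organelle and delivers it to the lysosome. Receptors in the outer mitochondrial membrane, foremost BNIP3L (NIX) in the erythroid lineage, bind ATG8 proteins on the growing autophagosome. PINK1 marks damaged mitochondria in a separate route. The ULK1 kinase starts autophagosome formation, and ATG9A is the lipid scramblase of the autophagosome seed. ATG7 and ATG5 attach the ATG8 proteins, of which LC3B (Map1lc3b) is one, to the autophagosome membrane. SQSTM1 (p62) tethers ubiquitinated cargo to ATG8 proteins and is itself degraded with it.

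The letters before the start are shown for Sqstm1, the gene of the 10 that rose, and for Bnip3, which had the largest ratio between genotypes. Each run is the 250 bases before the RefSeq start on GRCm38.p6, read 5′ to 3′ on the gene's strand, with the hexamer CACGTG, the E-box core to which TFEB-family and other factors can bind, in capitals. They lie at chr11:50210821-50211070 (- strand) for Sqstm1 and chr7:138909507-138909756 (- strand) for Bnip3.
Sqstm1: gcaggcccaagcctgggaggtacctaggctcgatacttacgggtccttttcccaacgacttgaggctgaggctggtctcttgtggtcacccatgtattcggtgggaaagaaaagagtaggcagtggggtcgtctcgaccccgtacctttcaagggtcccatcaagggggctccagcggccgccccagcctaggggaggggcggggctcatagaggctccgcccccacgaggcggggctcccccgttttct
Bnip3: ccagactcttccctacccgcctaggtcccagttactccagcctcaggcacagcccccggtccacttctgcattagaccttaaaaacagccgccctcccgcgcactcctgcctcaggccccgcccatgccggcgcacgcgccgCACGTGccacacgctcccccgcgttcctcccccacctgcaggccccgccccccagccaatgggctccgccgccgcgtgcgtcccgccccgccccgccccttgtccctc
Such a window was found in the RefSeq table for 9 of the 10 genes (not Bnip3l). CACGTG was present in 3 of the 9, at 14 bases before the start of Atg5, 108 before that of Bnip3 and 132 before that of Atg7, and in 6.02% of all 32851 windows of this kind. The shorter ACGTG, which every CACGTG contains, was also present in Atg9a and occurred in 16.6% of windows. The GATA-type hexamer TGATAA occurred in Pink1 (7.94% of windows). AGATAA (9.99% of windows), TGACNNNGC (10.2%) and TGATGNAA (3.45%) occurred in none of the 9. GC content was 72.4% in the Bnip3 window and 63.2% in that of Sqstm1, against a median of 52.4% over all windows. The windows of Atg7 and Fundc1 lie wholly inside the genes as GENCODE annotates them and are not shown. That of Atg7 is intronic, its RefSeq start being 9066 bases from the nearest GENCODE transcript start, and that of Fundc1 holds 105 exonic bases, 28 of them coding, before a downstream start. A match of letters is a description and does not show binding.

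The question was whether the transcripts of these 10 genes differ between WT and DKO precursors. Of the 10, Fundc1 and Atg7 fell in DKO, to about 0.70 of WT, and Sqstm1 rose to 1.26 times WT. Bnip3 had the largest ratio, 1.97, but spread so widely among DKO libraries that it did not pass the test, and Bnip3l stood at 1.14 times WT. So 3 of 10 genes (30%) passed an adjusted p of 0.05 in edgeR's quasi-likelihood test, against 21.6% of the 17378 genes tested (10.7% higher in DKO and 10.8% lower), and the share among the 10 was near that background. None of the 10 also changed by more than 1 on the log2 scale, the additional threshold of the study, which 8.63% of all genes passed. DESeq2 gave the same count of 0, and 6 of the 10 had an unadjusted p under 0.05 in edgeR. The median log2 fold change of the 10 was -0.05, beside 0.03 over all genes tested. For 4 of the 10, the WT and DKO libraries did not overlap, which held for 28.1% of all genes tested. In such bulk samples, fewer cells of a type and less RNA per cell cannot be told apart.

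**Figure D1:**
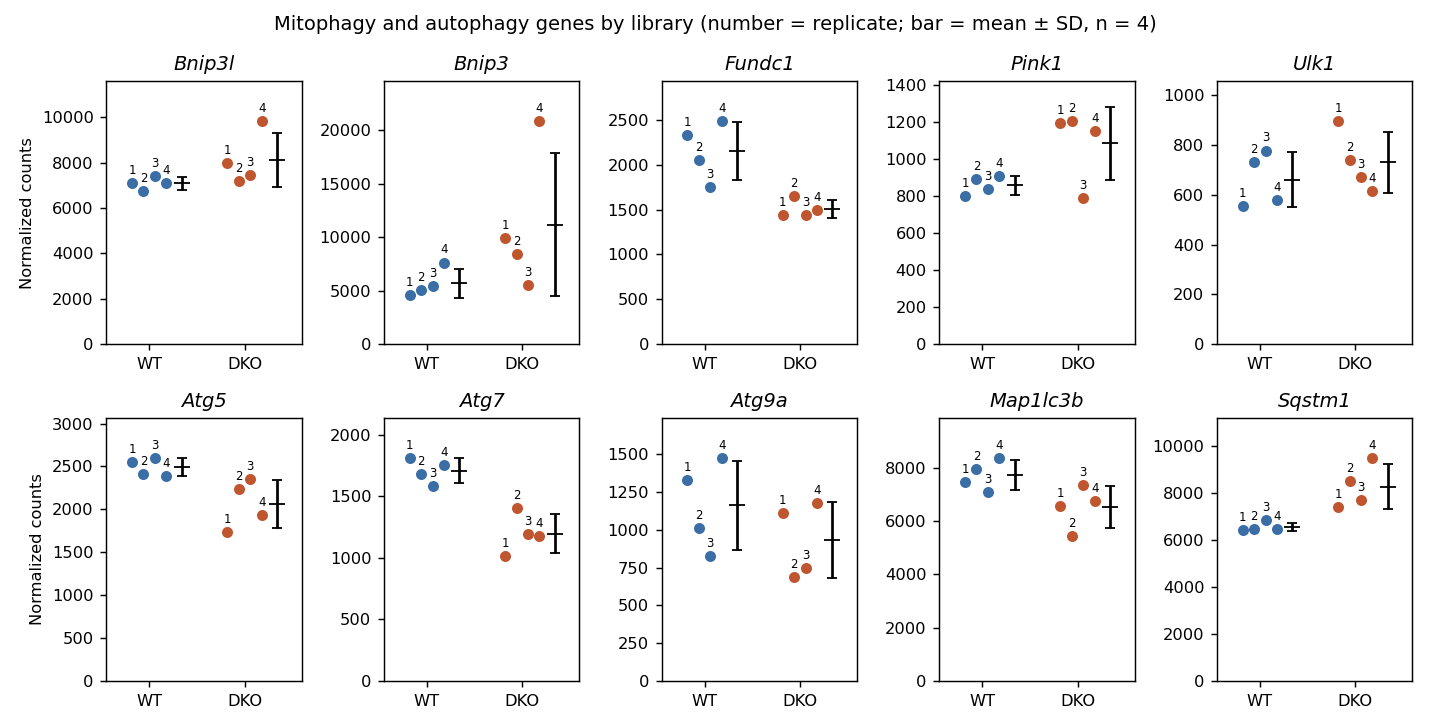
Normalized counts (y axis, from 0, a scale for each gene) of the 10 genes in each WT and DKO library, numbered by replicate, with the mean ± SD of 4 libraries in black. Fundc1, Atg5 and Atg7 in DKO lie below all WT libraries, Sqstm1 lies above them, and DKO replicate 4 of Bnip3 stands at 20830.

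The mitophagy receptors of the outer mitochondrial membrane did not move together. Bnip3l (ENSMUSG00000022051.15, chr14:66985239-67008877, - strand, GRCm38) is the receptor known for mitochondrial clearance in reticulocytes. The 4 WT libraries held 7085, 6737, 7417 and 7121 normalized counts of it, that is, counts scaled to a common library size, and the 4 DKO libraries 7983, 7194, 7435 and 9829. DKO replicate 4 was the highest and the other DKO libraries lay in or just above the WT range. The means were 7090 ± 278 in WT and 8110 ± 1192 in DKO (SD, n = 4), and the log2 fold change was 0.19 (standard error 0.10, 95% interval -0.04 to 0.43, edgeR adjusted p = 0.21). The exact two-sided permutation test over libraries gave p = 0.0571 for Bnip3l, where the smallest p that 4 against 4 allows is 0.0286.

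Bnip3 (ENSMUSG00000078566.8, chr7:138890836-138909519, - strand), its paralog and a gene known to be induced by hypoxia, held 4605, 5053, 5429 and 7629.5 normalized counts in WT against 9900, 8391, 5549 and 20830 in DKO. DKO replicates 1, 2 and 4 were above every WT library, with replicate 4 far above the rest, and DKO replicate 3 lay within the WT range. The means were 5679 ± 1343 and 11168 ± 6690 (SD, n = 4). Bnip3 did not pass the test, at a log2 fold change of 0.98 (standard error 0.36, 95% interval 0.18 to 1.78, edgeR adjusted p = 0.0794). Leaving out DKO replicate 3 moved the log2 value of Bnip3 to 1.20 (edgeR adjusted p = 0.0245), and leaving out DKO replicate 4 moved it to 0.49 (edgeR adjusted p = 0.162). With DKO replicate 3 alone against the 4 WT libraries, which share its Y-linked transcripts, edgeR gave Bnip3 a log2 fold change of -0.05 (adjusted p = 0.907). Beside Bnip3, 2 of 10 other hypoxia-inducible genes rose and 1 fell. Of the 10 log2 fold changes, 9 were above 0 and 1 below, with a median of 0.30. At an unadjusted p under 0.05 in edgeR, 4 were higher and 1 lower. Vegfa, which encodes an angiogenic growth factor, rose by 1.76 and Ankrd37 by 2.06 on the log2 scale, while Car9, a carbonic anhydrase, fell by 0.68. The summed level of the 10 ranged from 19544 to 24683 over WT libraries, and DKO replicates 1 to 4 had 23752, 22004, 16995 and 39418, so that DKO replicate 4 was highest and DKO replicate 3 lowest, as for Bnip3. What part this list had in the Bnip3 values was not tested.

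Fundc1 (ENSMUSG00000025040.13, chrX:17556564-17572325, - strand), also described as a hypoxia-responsive mitophagy receptor, went the other way. WT libraries held 2335, 2047, 1748 and 2485.5 normalized counts of Fundc1 and DKO libraries 1439.5, 1652, 1444 and 1497. The groups did not overlap, all of DKO lying under WT, with WT replicate 3 the nearest to DKO. Fundc1 fell by 0.51 on the log2 scale (standard error 0.12, 95% interval -0.79 to -0.24, adjusted p = 0.0176 in edgeR), from 2154 ± 326 to 1508 ± 99.2 (SD, n = 4), with an exact permutation p of 0.0286. Fundc1 is X-linked, and its level in DKO replicate 3, the DKO library with Y-linked transcripts and without high Xist, was among those of the other 3 DKO libraries. With that library alone against WT, the log2 fold change of Fundc1 was -0.59 and the adjusted p 0.0652. Without WT replicate 1 or 4 the call of Fundc1 was lost (adjusted p = 0.0594 and 0.0564).

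Per kilobase of exon, which allows levels of different genes to be compared, Bnip3 made up 47.2% ± 4.93 of the summed level of the 3 receptors in WT and 61.1% ± 10.4 in DKO (SD, n = 4). Its share ranged from 41.8% to 53.7% in WT and from 49.1% to 74.3% in DKO, and these ranges overlap. The share of Fundc1 ranged from 14.7% to 20.4% in WT and from 5.14% to 12.3% in DKO, with no overlap. A share also depends on the other receptors. The 5.14% was in DKO replicate 4, where Bnip3 stood at 20830 normalized counts and Fundc1, at 1497, lay among the other DKO libraries. Within each library, the log2 ratio of Bnip3l to Bnip3 counts was 0.35 ± 0.31 in WT and -0.30 ± 0.62 in DKO, a difference of -0.65 with an exact permutation p of 0.0857, which was also 0.0857 after adjustment over the 3 ratios tested. DKO replicate 3, at 0.42, had the ratio of a WT library. Among the other mitophagy receptors and inner-membrane receptors on the list, Bcl2l13, Fkbp8 and Phb2, none of 3 passed the test in edgeR or DESeq2 and 1, Bcl2l13 (log2 fold change -0.21, adjusted p = 0.124), had an unadjusted p under 0.05.

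**Figure D2:**
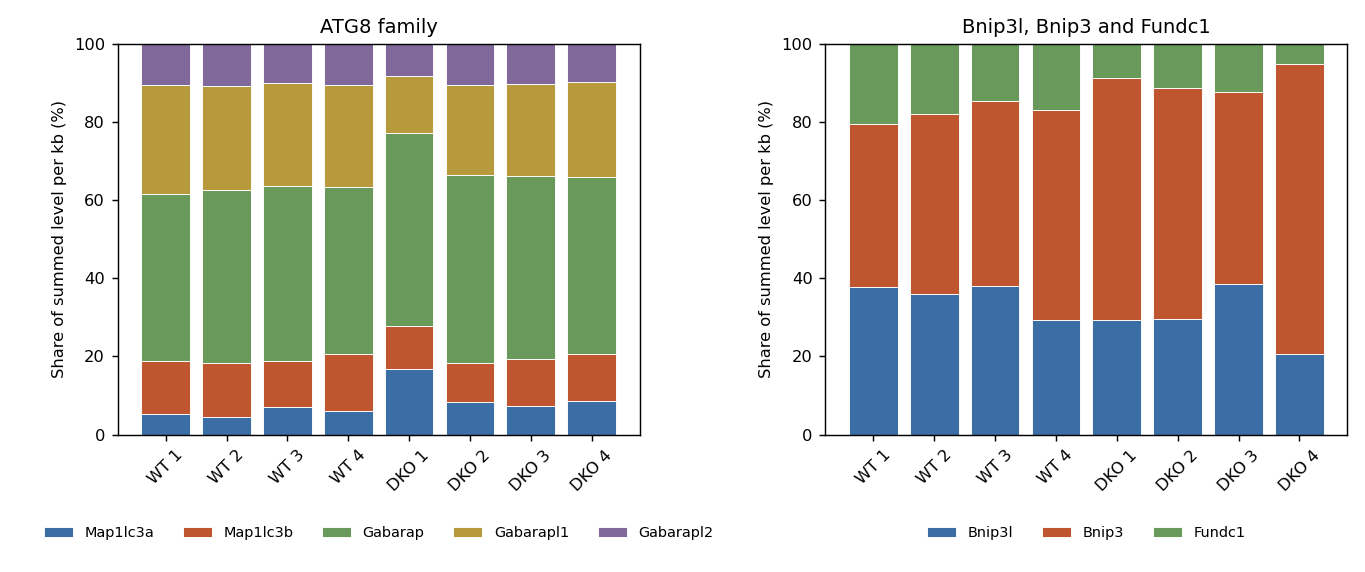
Share in percent of the summed level per kilobase of exon (y axis) in each of the 8 libraries, for the 5 ATG8 genes on the left and for Bnip3l, Bnip3 and Fundc1 on the right. The Fundc1 segment is 14.7% to 20.4% in WT and 5.14% to 12.3% in DKO, and Map1lc3a reaches 16.9% in DKO replicate 1.

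Pink1 (ENSMUSG00000028756.12, chr4:138313409-138326307, - strand) encodes the kinase that builds up on damaged mitochondria. WT libraries held 799, 893, 836 and 908 normalized counts of Pink1 and DKO libraries 1193, 1204, 789 and 1151. DKO replicates 1, 2 and 4 were above all WT libraries and DKO replicate 3 was below all of them. The log2 fold change of Pink1 was 0.34 (standard error 0.15, 95% interval -0.0032 to 0.67, adjusted p = 0.142 in edgeR, exact permutation p = 0.143). Without DKO replicate 3, Pink1 was higher by 0.47 on the log2 scale with an adjusted p of 0.0186, and with DKO replicate 3 alone against WT the log2 fold change was -0.14 (adjusted p = 0.592).

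Ulk1 (ENSMUSG00000029512.11, chr5:110784488-110810097, - strand), the kinase that starts autophagy, held 554, 732, 778 and 581 normalized counts in WT against 896, 739, 671 and 614 in DKO. The groups overlapped and the log2 fold change of Ulk1 was 0.14 (standard error 0.18, 95% interval -0.25 to 0.54, adjusted p = 0.603). Ulk2, its paralog, had a log2 fold change of -0.17 (adjusted p = 0.410). The log2 ratio of Ulk1 to Ulk2 within a library was higher in DKO by 0.32, with no overlap between groups (exact permutation p = 0.0286, adjusted over the 3 ratios 0.0429). With any 1 library left out, the difference was 0.24 to 0.38. The exact permutation p adjusted over the 3 ratios was then 0.0571 to 0.0857, so the pass was lost each time. Such a fit has only 35 arrangements, and a ratio at the smallest p passes the adjustment only where another ratio reaches it too. The loss therefore says little about the difference. None of the 4 other genes of the ULK initiation complex on the list passed the test in edgeR or DESeq2, and none had an unadjusted p under 0.05.

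Atg9a (ENSMUSG00000033124.15, chr1:75180860-75192196, - strand), the lipid scramblase of the autophagosome seed, held 1331, 1014, 829 and 1477.5 normalized counts in WT against 1114, 687, 747 and 1181 in DKO. Both groups spread widely and overlapped, and the log2 fold change was -0.32 (standard error 0.23, 95% interval -0.84 to 0.21, adjusted p = 0.364). The value of Atg9a is uncertain because the gene overlaps Ankzf1 on the other strand, whose mean was 142% of that of Atg9a, and the strand setting of the counting was not stated. Atg9a also overlaps Gm29253 on the same strand, whose mean was 20.7% of that of Atg9a.

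The E1-like enzyme Atg7 (ENSMUSG00000030314.16, chr6:114643097-114860614, + strand) activates ATG12 and the ATG8 proteins. WT libraries held 1811, 1683, 1581 and 1754 normalized counts of Atg7 and DKO libraries 1013, 1404, 1193 and 1175.5. All 4 DKO libraries lay below the lowest WT library, DKO replicate 1 being the lowest. Atg7 fell by 0.51 on the log2 scale (standard error 0.12, 95% interval -0.77 to -0.25, adjusted p = 0.0149 in edgeR, exact permutation p = 0.0286), from 1707 ± 98.9 to 1196 ± 161 (SD, n = 4). Without DKO replicate 1, Atg7 had a log2 fold change of -0.44 (adjusted p = 0.0198), and with DKO replicate 3 alone against WT it was -0.54 (adjusted p = 0.0322). Leaving out WT replicate 1 moved the adjusted p of Atg7 to 0.0564.

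Atg5 (ENSMUSG00000038160.7, chr10:44268358-44364291, + strand) forms, with ATG12 and ATG16L1, the complex that places ATG8 proteins on the membrane. It held 2557, 2413, 2600.0 and 2391 normalized counts in WT against 1733, 2239, 2353 and 1930 in DKO. Each DKO library was below each WT library, but by little in replicates 2 and 3. The log2 fold change of Atg5 was -0.27 (standard error 0.11, 95% interval -0.51 to -0.03, exact permutation p = 0.0286), and its adjusted p of 0.102 over all genes did not pass. Its partners Atg12 and Atg16l1 and the E2-like Atg3 had log2 fold changes of -0.09, 0.06 and 0.07 and did not pass (adjusted p = 0.640, 0.776 and 0.678). Among the 9 conjugation genes other than Atg5 and Atg7, Atg16l2 alone passed in edgeR, and fell by 0.65 on the log2 scale (adjusted p = 0.0246). That is 11.1% of the 9, near the 10.8% of all genes tested called lower.

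Map1lc3b (ENSMUSG00000031812.16, chr8:121590361-121598760, + strand), which encodes the autophagosome marker LC3B, held 7490, 7957, 7086 and 8383 normalized counts in WT against 6568, 5452, 7367 and 6761 in DKO. DKO replicate 3 lay within the WT range and the other 3 below it. The log2 fold change of Map1lc3b was -0.24 (standard error 0.10, 95% interval -0.47 to -0.01, adjusted p = 0.121, exact permutation p = 0.0571). Within the ATG8 family, Gabarap had the highest level per kilobase in every library, with 43.7% ± 0.996 of the summed level in WT and 47.5% ± 1.76 in DKO, and Map1lc3b had 13.5% ± 1.16 and 11.2% ± 0.994 (SD, n = 4). Map1lc3a held 398 to 658 normalized counts in WT against 1609, 731, 700 and 761 in DKO, and its log2 fold change of 0.90 (adjusted p = 0.0570) was 0.52 without DKO replicate 1 (adjusted p = 0.0777). Gabarapl1, with a log2 fold change of -0.30 (adjusted p = 0.148), was also furthest from WT in that library and was at -0.17 without it (adjusted p = 0.141). None of the 5 ATG8 genes passed the test in edgeR. DESeq2 called 1 of them higher, and 2 had an unadjusted p under 0.05.

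Sqstm1 (ENSMUSG00000015837.15, chr11:50199366-50210827, - strand) was the gene of the 10 that rose. The 4 WT libraries were close together, at 6449, 6477, 6843 and 6465 normalized counts, and the DKO libraries held 7399, 8527, 7699 and 9506. The groups did not overlap, all of DKO lying over WT, with DKO replicate 4 the highest. Sqstm1 rose by 0.34 on the log2 scale (standard error 0.09, 95% interval 0.14 to 0.54, adjusted p = 0.0271 in edgeR, exact permutation p = 0.0286), from 6558 ± 190 to 8283 ± 945 (SD, n = 4). Sqstm1 overlaps Mrnip on the other strand, whose mean was 8.69% of that of Sqstm1. The call of Sqstm1 was not firm. It was lost when WT replicate 1, 2 or 4 or DKO replicate 2 or 4 was left out, with adjusted p up to 0.0864, and with DKO replicate 3 alone against WT the log2 fold change was 0.21 (adjusted p = 0.153). Sqstm1 is a known target of NRF2 and is also induced with the ATF4 response. Of 10 other NRF2 targets, 4 rose and 1 fell, and of 12 ATF4 and CHOP targets, 10 rose. The summed level of the NRF2 targets ranged from 17491 to 19010 over WT libraries. DKO replicates 1 to 4 had 19631, 27070, 22823 and 28718, the same order of these 4 libraries as by Sqstm1. The ATF4 and CHOP targets summed to between 66675 and 72584 in WT. In DKO replicates 1 to 4 they summed to 70646, 111390, 83123 and 125590, again the order of these libraries by Sqstm1. What part these lists had in the Sqstm1 values was not tested.

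The ratio of Sqstm1 to Map1lc3b, a cargo receptor against the ATG8 protein it binds, differed between genotypes. Its log2 value was -0.22, -0.30, -0.05 and -0.37 in WT and 0.17, 0.65, 0.06 and 0.49 in DKO. The ratio was below 0 in all WT libraries and above 0 in all DKO libraries. It is a ratio of counts without correction for gene length, so 0 does not mark equal levels. Per kilobase of merged exon, mean Sqstm1 was above mean Map1lc3b in both genotypes (1954 against 1028 in WT, 2468 against 870 in DKO). The difference in the log2 ratio of counts between genotypes was 0.58 (exact permutation p = 0.0286, adjusted over the 3 ratios 0.0429). With any 1 library left out, the difference was 0.48 to 0.67. The adjusted exact permutation p was then 0.0571 to 0.0857, so the pass was again lost each time. As for Ulk1 to Ulk2, the few arrangements of these fits mean that this loss says little about the difference. Transcript levels do not measure autophagic flux, which degrades SQSTM1 as a protein.

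**Figure D3:**
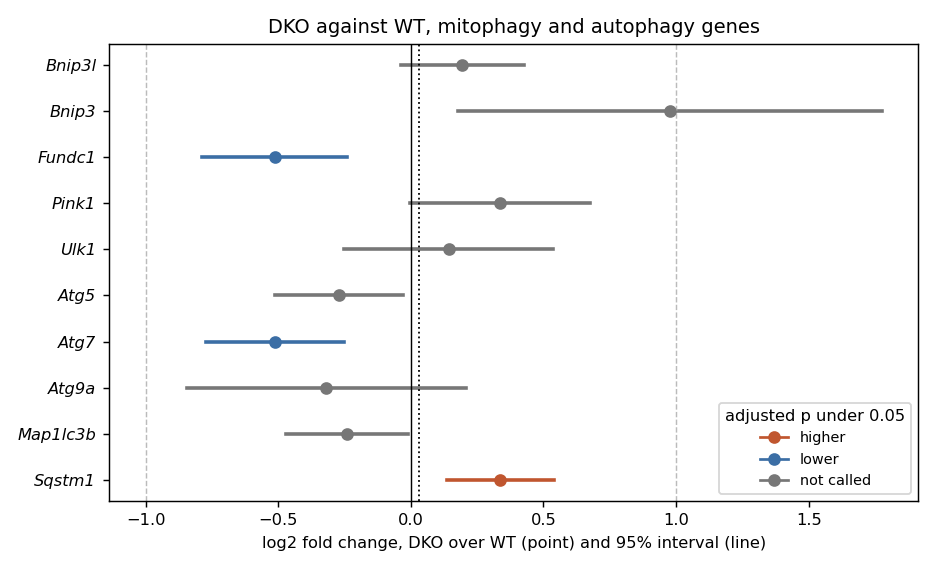
Log2 fold change of DKO over WT (x axis, point) with its 95% interval (line) from edgeR for the 10 genes, coloured by the call at an adjusted p of 0.05. The dotted line is the median of all genes tested (0.03) and the dashed lines mark a log2 change of 1 in either direction; Fundc1 and Atg7 lie at -0.51 and Sqstm1 at 0.34, and the Bnip3 interval is the widest.

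The order of the 10 genes by level per kilobase of merged exon was the same in both genotypes, though not with another measure of length. In WT, Bnip3 was highest at 2507 ± 593, then Sqstm1 (1954 ± 56.6), Bnip3l (1837 ± 72.1), Atg5 (1059 ± 44.1), Map1lc3b (1028 ± 74.9), Fundc1 (915 ± 139), Pink1 (321 ± 19.0), Atg7 (245 ± 14.2), Atg9a (202 ± 51.2) and Ulk1 (102 ± 17.0) normalized counts per kilobase (SD, n = 4). In DKO the same order ran from 4931 ± 2954 for Bnip3 to 113 ± 18.8 for Ulk1. The highest level was thus 24.6 times the lowest in WT and 43.8 times in DKO. In WT, neighbours whose ranges over libraries did not overlap were Bnip3l and Atg5, Fundc1 and Pink1, Pink1 and Atg7, and Atg9a and Ulk1, while the ranges of Bnip3 and Sqstm1, and of Sqstm1 and Bnip3l, overlapped. In DKO they were Bnip3l and Atg5, Map1lc3b and Fundc1, Fundc1 and Pink1, and Pink1 and Atg7. When the longest transcript stood for gene length, Map1lc3b moved to rank 4 in both genotypes and the orders were no longer the same: in WT Fundc1 stood above Atg5 and Atg7 above Pink1, and in DKO Atg5 above Fundc1 and Pink1 above Atg7.

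**Figure D4:**
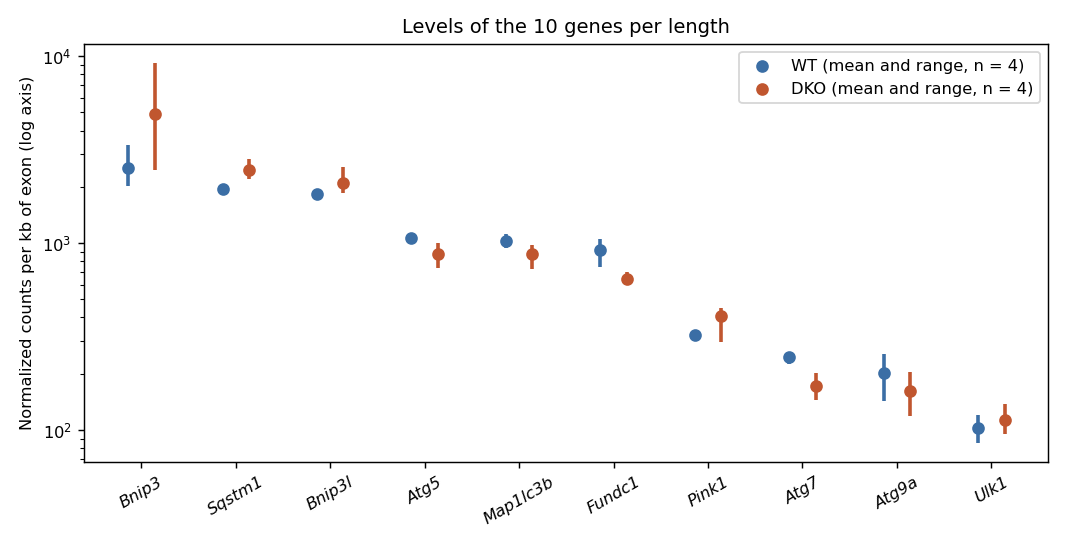
Normalized counts per kilobase of merged exon on a log axis for the 10 genes in WT and DKO, as the mean (point) and range (line) of 4 libraries. Bnip3, Sqstm1 and Bnip3l lead in both genotypes, and the Bnip3 range in DKO reaches from 2450 to 9197.

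The spread between libraries also differed by gene. The coefficient of variation in DKO was 59.9% for Bnip3, 14.7% for Bnip3l and 11.4% for Sqstm1, against 23.7%, 3.93% and 2.90% in WT. For Fundc1 it was 6.58% in DKO and 15.1% in WT. Late erythroid markers, which accompany Bnip3l in maturing cells, summed to between 9379 and 12675 in WT and between 8246 and 19507 in DKO, with 2 of 12 higher. DKO replicate 4 had both the highest sum and the highest Bnip3l. Of 10 early erythroid and progenitor markers, 3 rose (Epor, Lmo2 and Zfpm1) and 2 fell (Kit and Cd34). The part of cell maturity in these values was not tested. By Pearson correlation of log2 normalized counts over the 8 libraries, the 5 genes of 12338 most like Bnip3l were Zmat1 (r = 0.991), P4ha1 (0.977), Hist1h2bc (0.969), Ell2 (0.962) and H2-Ke6 (0.962) (a description, over libraries in which genotype and litter cannot be told apart).

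A further 76 genes of the autophagy pathway, listed by role, gave the setting of the 10. Of these, 17 fell, 2 rose and 57 did not pass the test, and 52 of the 76 log2 fold changes were below 0, with a median of -0.17. The median over all genes tested was 0.03. The share called lower was 22.4% and the share called higher 2.63%, beside 10.8% and 10.7% of all genes tested. In either direction it was 25.0%, beside 21.6%. The counts depend on the scaling: with upper-quartile scaling, 9 fell and 5 rose. Over all genes, 1242 then fell and 2492 rose in place of 1878 and 1867. Under that scaling too, more genes of the list fell than rose, while over all genes more rose than fell. No test of the list as a whole was made. The 2 that rose were Stk11, the LKB1 kinase upstream of AMPK, by 0.43 on the log2 scale (adjusted p = 0.00750) and Wipi1, which reads phosphatidylinositol 3-phosphate on the forming autophagosome, by 0.81 (adjusted p = 0.0210), a call lost in 3 of the 8 fits with 1 library left out. Stk11 held 3529 to 4043 normalized counts in WT against 4655 to 5440 in DKO, with no overlap.

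The genes that fell lay in several roles. Among 9 cargo receptors other than Sqstm1, 4 fell (44.4%, beside 10.8% of all genes tested called lower) and none rose in edgeR. There, 1 was higher at an unadjusted p under 0.05. Ncoa4, the receptor that delivers ferritin to lysosomes and so provides iron in erythroid cells, had the largest fall, 1.21 on the log2 scale (adjusted p = 0.00291). It held 3218, 2856, 2112 and 3041 normalized counts in WT against 951, 1119, 1454 and 1316.5 in DKO, again with no overlap. Tollip, a ubiquitin-binding adaptor, fell by 0.76 (adjusted p = 0.00180), and Nbr1, a receptor related to Sqstm1, by 0.41 (adjusted p = 0.0401), a call lost in 5 of those 8 fits. Tax1bp1 also fell, while Optn had a log2 fold change of 0.21 (adjusted p = 0.400). Of all 10 cargo receptors on the list, Sqstm1 alone rose in edgeR, while DESeq2 called 2 higher.

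In the group of the PINK1 pathway without Pink1, 5 of 12 genes fell (41.7%, beside 10.8% of all genes tested) and none rose in edgeR. There, 1 was higher at an unadjusted p under 0.05, and DESeq2 called none higher. Mfn2, a mitochondrial fusion protein, fell by 0.70 (adjusted p = 0.00359), from between 1906 and 2404 normalized counts to between 1272 and 1466. Rhot1, the outer-membrane GTPase Miro1, fell by 0.61 (adjusted p = 0.00748), and the deubiquitinase Usp8 by 0.59 (adjusted p = 0.00931). The kinase Tbk1 and the deubiquitinase Usp15 were the other 2 that fell. Of 8 genes of autophagosome-lysosome fusion, 3 fell (37.5%, beside 10.8% of all genes tested called lower). The SNARE Ykt6 fell by 0.63 (adjusted p = 0.00308). Plekhm1 (by 0.60, adjusted p = 0.0406) and Rab7 (by 0.36, adjusted p = 0.0496) passed only narrowly. Rab7 was at 7477 normalized counts in DKO replicate 1, 10279 to 10910 in the other DKO libraries and 12284 to 12997 in WT.

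All 7 genes of the class III PI3-kinase complex had log2 fold changes below 0, from -0.56 to -0.17, and the catalytic subunit Pik3c3 fell by 0.48 (edgeR adjusted p = 0.0462), the 1 call in edgeR where DESeq2 made 2. That call is 14.3% of the 7, near the 10.8% of all genes tested called lower. Of the 9 genes listed with Atg9a, Wipi1 rose and Atg9b, the Atg9a paralog, fell by 1.11 (adjusted p = 0.0254), while Atg2a and Atg2b, which carry lipid to the autophagosome as VPS13-like bridges, had log2 fold changes of 0.03 and 0.09 (adjusted p = 0.929 and 0.757). Among 11 upstream regulators, Tsc2 (adjusted p = 0.0485) and Prkaa1 (adjusted p = 0.0209) fell and Stk11 rose. That is 18.2% lower and 9.09% higher, beside 10.8% and 10.7% of all genes tested. Ncoa4 and Atg9b were the pathway genes that also passed a log2 change of 1.

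**Figure D5:**
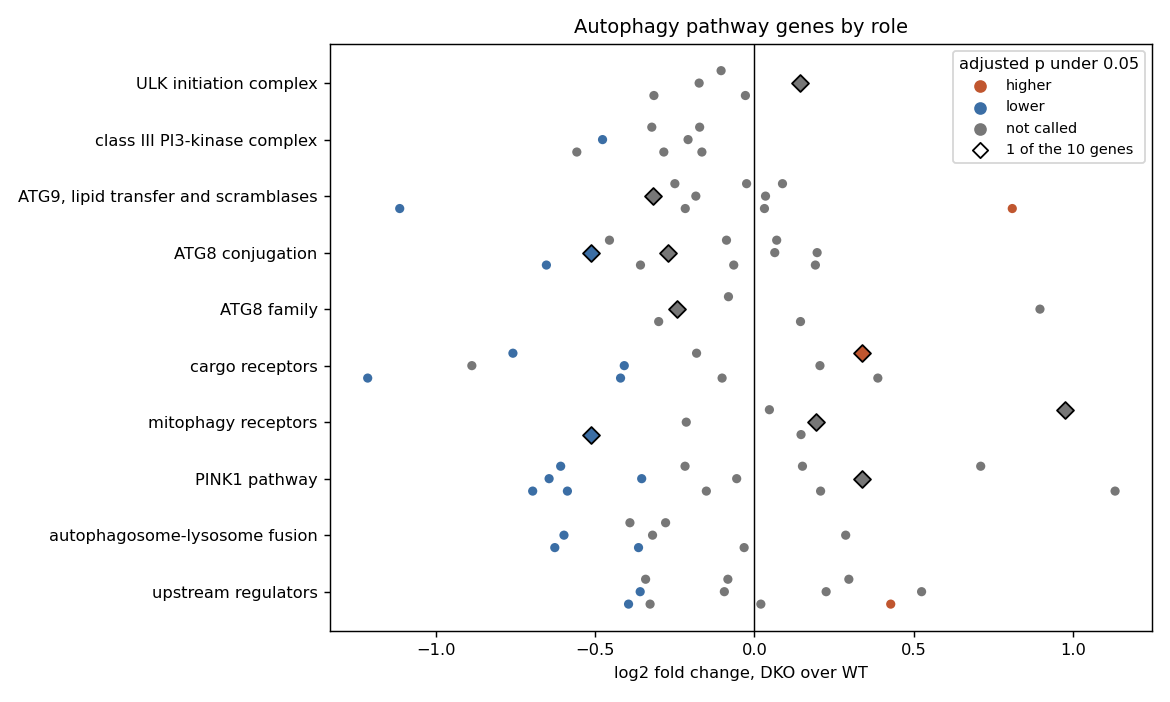
Log2 fold change of DKO over WT (x axis) for the 86 autophagy genes by role, coloured by the call at an adjusted p of 0.05, with the 10 genes as outlined diamonds. Vertical offsets within a role only separate the points. Of the 76 other genes, 17 are lower and 2 higher, and all 7 genes of the class III PI3-kinase complex lie below 0.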

How the data were processed

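RNAseq counts of 4 WT and 4 DKO libraries of S0 cells were analysed, grouped by their labels. Per the labels and the study's methods, polyA RNA was converted to cDNA by template switching, and the authors trimmed reads with fastp 0.21.0, mapped them to mm10 (the build of GRCm38) with HISAT2 2.2.1, excluded alignments of quality under 20, and deposited whole-number gene counts from StringTie 1.3.3b and its prepDE script, unnormalized and not pooled. The strand setting is not given in the sources used here. Because prepDE works back from coverage, a library's total need not equal its reads.

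Of 52636 identifiers, 52489 matched a symbol in GENCODE vM21 without version. Counts were tested with edgeR 4.0.16, which runs on limma 3.58.1, under R 4.3.3 (filterByExpr, TMM, robust quasi-likelihood test, Benjamini-Hochberg over the 17378 genes tested, no covariate). The words rose and fell mean an adjusted p under 0.05. Standard errors were taken from the log2 fold change and F, and normalized counts are counts over the effective library size times its mean. Exact two-sided permutation tests of log2 CPM (prior count 1) used 70 arrangements. The steps were tested on simulated data. Promoters came from RefSeq. Depth was not the limit for the 10 genes, whose spread between libraries exceeded counting error.

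The 10 genes and all lists were chosen with earlier results of these data known. Pathway genes named are, of those past the threshold, the 6 with the smallest p in each direction (2 rose), and a fixed set with roles like those of the 10. Others named (Atg9b, Atg16l2, Pik3c3, Tax1bp1, Tbk1, Usp15, Plekhm1, Rab7, Tsc2, Prkaa1 and single markers) were chosen after their values were seen. Alternatives tried were DESeq2 1.42.0, upper-quartile scaling, library sizes unscaled by TMM, other low-count filters, removal of hemoglobin genes, protein-coding genes only, a replicate block, each library left out, other prior counts and another gene length. The fit of DKO replicate 3 alone against WT was added after seeing the data, and there the lone DKO library is assumed to vary as the WT libraries do. No library was a second copy of another. Values of 2 listed genes are not reported here.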

Additional observations from a re-analysis of the deposited data

Results flagged for a closer look

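Among 74 groups of 4 libraries (the 10 genes, 24 pathway genes named by the rule and 3 log2 ratios, by genotype), 4 held a library whose gap to the others exceeded Dixon's 95% critical share of the group's range, where chance gives about 1 in 20, or 3.7. Pink1 in DKO replicate 3 stood at 788.7 normalized counts, against 1151 to 1204 in the other DKO libraries. Sqstm1 in WT replicate 3 stood at 6843, against 6449 to 6477. Usp8 in DKO replicate 1 stood at 1799, against 2179 to 2252. Map1lc3a in DKO replicate 1 stood at 1609, against 699.6 to 760.7.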

How the results depend on the processing

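The fold changes of 8 of the 10 genes kept their direction under every alternative run. Bnip3 and Pink1 did not: with DKO replicate 3 alone against WT their log2 fold changes were -0.0499 and -0.142. The 1 of 10 genes called higher, Sqstm1, became 0 with no low-count filter, with the replicate block and with DKO replicate 3 alone, and 0 to 3 with 1 library left out, where 3 (Bnip3, Pink1 and Sqstm1) came without DKO replicate 3. The 2 called lower became 1 with the replicate block (Fundc1, with Atg7 at an adjusted p of 0.0512), 1 with DKO replicate 3 alone (Atg7), and 0 to 2 with 1 library left out, 0 without WT replicate 1. Beyond a log2 change of 1, 0 to 1 of the 10 were higher with 1 library left out (Bnip3, without DKO replicate 3). For the 76 pathway genes, 2 higher became 4 with DESeq2, 5 with upper-quartile scaling, 4 with at least 10 counts in every library, 4 with protein-coding genes only and 1 to 7 with 1 library left out. The 17 lower became 9 with upper-quartile scaling, 10 with the replicate block and 8 to 16 with 1 library left out. Beyond a log2 change of 1, 1 was higher with upper-quartile scaling and 0 to 1 with 1 library left out, and 1 was lower with the replicate block and 1 to 2 with 1 library left out. Upper-quartile scaling raised the median of all genes by 0.108. Fits with 1 library left out test a smaller sample, and otherwise the cause was not tested. With 1 library left out, the log2 ratio differences were -0.89 to -0.38 for Bnip3l to Bnip3, 0.48 to 0.67 for Sqstm1 to Map1lc3b and 0.24 to 0.38 for Ulk1 to Ulk2. The exact permutation p adjusted over the 3 ratios was over 0.05 in all 8 cases. It was 0.0571 to 0.2 for Bnip3l to Bnip3, and 0.0571 to 0.0857 for Sqstm1 to Map1lc3b and for Ulk1 to Ulk2. With 35 arrangements in these cases, a ratio at the smallest p passes only where another ratio reaches it too. Mfn2, Ncoa4, Rhot1, Stk11, Tollip, Usp8 and Ykt6 kept their calls in all 8 such fits. Libraries that share a replicate number did not deviate together (correlations of -0.09, 0.04, -0.02 and -0.01), so the number pairs nothing, and over all genes the replicate block gave 1026 higher and 1083 lower in place of 1867 and 1878. Over all genes, DESeq2 gave 2767 higher and 2646 lower. With 4 libraries a group, the exact test cannot go below 0.0286, which limits what it can show.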
